A study of Mus musculus with 12 samples.

Results

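The genes described here are the claudins, the other membrane proteins and scaffolds of the tight junction, and the MARVEL-domain families CMTM and MAL, as found in mouse colon and urinary bladder. They were chosen by symbol alone, from the numbered *Cldn*, *Tjp*, *Marveld* and *Cmtm* genes together with *Ocln*, *F11r*, *Jam2*, *Jam3*, *Mal*, *Mal2*, *Pllp* and *Plp2*. The genes described are 45 of the 54532 listed, namely 23 claudins, 9 junction genes, 9 CMTM genes and 4 genes of the MAL family. RNA was sequenced from homogenates of the colon and the urinary bladder of male mice aged 5 to 7 weeks. All mice carried floxed *Yap1* and *Wwtr1* alleles, which encode the transcriptional co-activators YAP and TAZ, and all received 1 mg tamoxifen daily in 5 injections, with tissue taken on day 7 after the first. The Y/T KO mice also carried the *Myh11*-CreERT2 transgene, which is driven by the promoter of smooth muscle myosin heavy chain, and the Ctrl mice were Cre-negative. Each of the 4 groups (Ctrl colon, Y/T KO colon, Ctrl bladder and Y/T KO bladder) held 3 libraries. They came from 9 mice, of which 788 (Ctrl), 783 and 780 (both Y/T KO) gave both tissues. The Cre transgene acts in smooth muscle cells, whereas most of the genes below are best known from epithelium and endothelium, and a homogenate holds all of these.

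Tight junctions seal the space between neighbouring epithelial or endothelial cells. Claudins are small membrane proteins that form the strands of the junction, and their mix sets which ions and water can pass: some, such as claudin-2 and claudin-15, form pores, and others, such as claudin-3 and claudin-4, mostly seal. Occludin, Marveld2 and Marveld3 join the strands, the junctional adhesion molecules F11r, Jam2 and Jam3 are immunoglobulin-like receptors, and the Tjp (ZO) proteins tie the strands to actin. *Marveld1* is counted among the junction genes here by its symbol alone. Proteins of the MAL and CMTM families share the MARVEL domain with occludin and take part in membrane sorting. Mal itself is a raft protein of apical transport in polarised epithelia and of myelin. The umbrella cells of the bladder surface form one of the tightest barriers of the body, and the colonic epithelium is a barrier that absorbs salt and water.

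Levels are TPM, a measure of abundance that StringTie scales by gene length and library total, which can be set side by side between genes. Depth was 2.80 to 3.94 aligned gigabases per library, and read counts were not analysed here. *Yap1* ranged from 45.8 to 54.9 TPM in Ctrl colon and from 41.3 to 47.0 TPM in Y/T KO colon, and from 98.6 to 110 TPM in Ctrl bladder against 69.4 to 72.1 TPM in Y/T KO bladder. *Wwtr1* overlapped between genotypes in both tissues, at 16.8 to 21.5 against 17.9 to 22.7 TPM in colon and 32.5 to 61.6 against 48.3 to 60.8 TPM in bladder. These values also count cells outside smooth muscle and do not measure the deletion. In Y/T KO colon the paper reports less YAP and TAZ protein by Western blot and reduced or lost staining in the muscle layers. Its experiments were, unless it says otherwise, done later than day 7. The 11 urothelial markers summed to 6033 to 8299 TPM in bladder and 100.2 to 144 TPM in colon, and the 12 colonocyte markers to 12951 to 15930 TPM in colon and 141 to 194 TPM in bladder. Smooth muscle markers, 8 genes, summed to 7481 to 8227 TPM in the Ctrl colon libraries, compared with 4913 to 5780 TPM in those of Y/T KO, and to 34907 to 45463 against 16562 to 30437 TPM in bladder. The bladder libraries Ctrl 784, Y/T KO 783 and Y/T KO 780 also stood apart by genes of the prostate: *Sbp*, which encodes an androgen-dependent secretory protein of the mouse prostate, was at 36341, 39648 and 27206 TPM in them and at 14.3 to 35.3 TPM in the other 3 bladder libraries. The 6 striated muscle genes summed to 174, 1901 and 2105 TPM in the same libraries and to under 1 TPM in the others. Where leaving these libraries out changed a call, this is stated.

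Of the 45 genes, 27 were at 1 TPM or more in all 12 libraries, 11 stayed under 1 TPM in every library, and 7 of those 11 were listed at 0 throughout: *Cldn13*, *Cldn16*, *Cldn18*, *Cldn24*, *Cmtm1*, *Cmtm2a* and *Cmtm2b*. The 3 silent CMTM genes lie next to each other on chromosome 8, beside *Cmtm3* and *Cmtm4*, which were at 23.0 TPM or more in every library. The other low genes were *Cldn6*, *Cldn17*, *Cldn19* and *Cldn20*, at no more than 0.80 TPM in any library.

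The colon and the bladder shared most of their leading claudins but differed in the mix and in the total level. In the colon the claudins summed to 990.2 to 1646 TPM and in the bladder to 426 to 498 TPM, with no overlap between the tissues. *Cldn7*, which encodes a claudin found at both the junction and the basolateral membrane, made up 37.8% to 46.8% of the colon sum and 8.57% to 10.1% of the bladder sum. *Cldn4* made up 30.4% to 43.0% of the bladder sum and 4.49% to 9.15% of the colon sum. In Ctrl colon the order of mean levels was *Cldn7*, *Cldn3*, *Cldn8*, *Cldn2*, *Cldn15*, *Cldn4*, *Cldn12*, *Cldn23* and *Cldn5*, and the libraries of neighbours overlapped from *Cldn3* down to *Cldn12*. In Ctrl bladder *Cldn4* and then *Cldn8* led without overlap, followed by *Cldn15*, *Cldn7*, *Cldn5*, *Cldn10*, *Cldn23*, *Cldn12*, *Cldn1* and *Cldn3*, whose neighbours all overlapped.

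**Figure D1:**
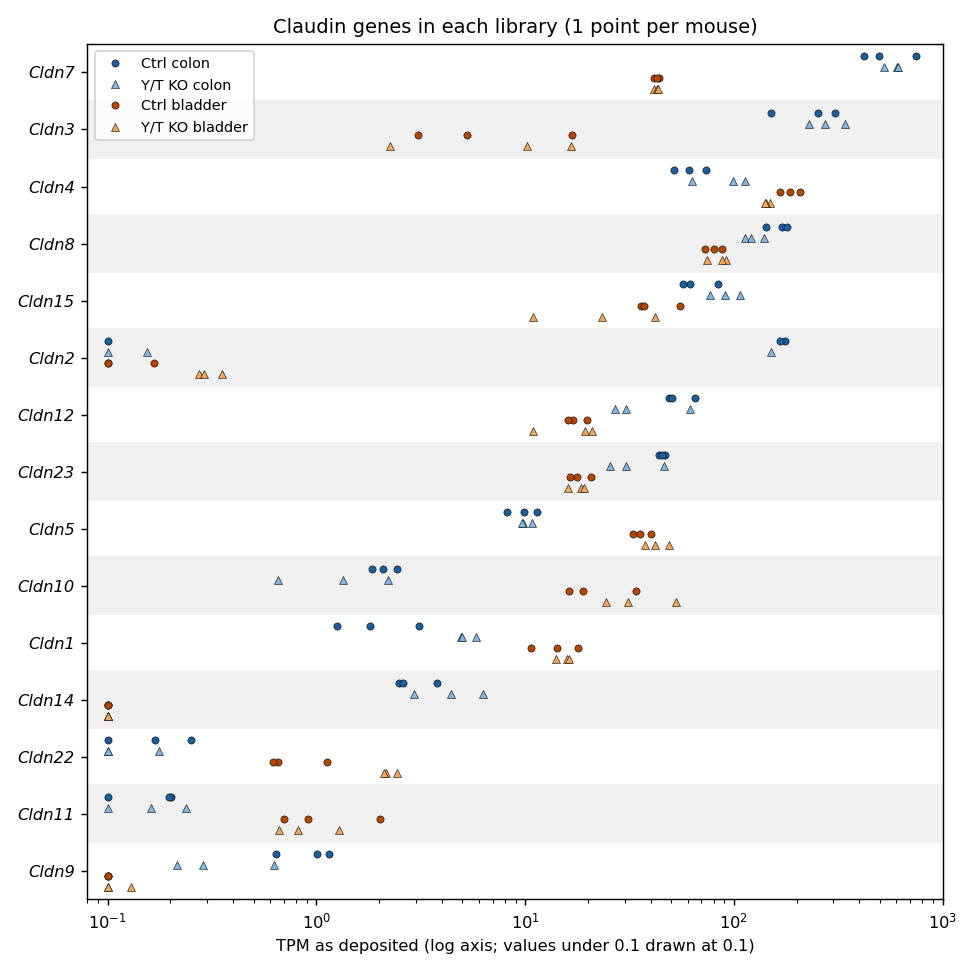
TPM as deposited (log axis) of the 15 claudin genes that reached 1 TPM in any library, with 1 point for each of the 12 libraries, circles for Ctrl and triangles for Y/T KO, blue for colon and orange for bladder. *Cldn7* sits at 419 to 747 TPM in colon and 41.3 to 43.9 TPM in bladder, *Cldn4* is higher in bladder, and *Cldn2* splits the colon libraries into 3 at 151 to 175 TPM and 3 at 0.02 to 0.15 TPM.

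Between Ctrl colon and Ctrl bladder, 31 of the 34 genes that passed the filter differed (limma, adjusted p under 0.05). Of these, 18 were higher in colon, where 25.1% of all 19773 tested genes were called in that direction, and 13 were higher in bladder, where 25.3% were. The 18 make up 52.9% of the 34 and the 13 make up 38.2%, and the median log2 difference of the 34 was 1.30, against 0.01 over all genes. Among the called genes, *Cldn9* and *Cldn14* passed the filter through colon libraries alone, and *Cldn11* and *Cldn22* through bladder libraries alone. The filter thus favoured the calls of these genes in advance. In Y/T KO mice 18 genes were higher in colon (25.8% of all genes) and 12 were higher in bladder (25.6% of all genes). The genotypes shared 28 of these calls, all in the same direction, with *Cldn4*, *Cmtm7* and *Cmtm8* called in Ctrl mice and not in Y/T KO, and *Cldn15* and *Tjp1* the other way round. Without the 3 libraries high in *Sbp*, *Cldn15* was also called in Ctrl mice (adjusted p = 0.0320), *Cldn9*, *Cldn11* and *Tjp1* lost their call in Y/T KO mice, and *Cmtm8* gained it. Whether those 5 genes differ between the genotypes in their tissue difference is the interaction test below, which called none of them. In the 3 mice that gave both tissues, 29 of the 31 genes had the Ctrl direction in every mouse, the exceptions being *Cmtm7* and *Cmtm8*. This is not a separate check, as the libraries of mouse 788 were among those that gave the Ctrl calls. The other mice, 783 and 780, were Y/T KO, and their bladder libraries were high in *Sbp*.

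These differences compare whole organs. The 5 general epithelial markers (*Epcam*, *Cdh1*, *Krt8*, *Krt18*, *Krt19*) summed to 6543 to 9429 TPM in colon and 1947 to 2565 TPM in bladder, and smooth muscle markers had the opposite order. The epithelial markers did not all agree: 4 were called higher in Ctrl colon and 1 higher in Ctrl bladder (median log2 difference 2.58). Scaling to them therefore rests on markers of mixed direction. In bulk tissue, fewer cells of a type and less RNA per cell cannot be told apart. When libraries were scaled to the epithelial markers instead of to all genes, the median of all genes moved to -2.28 for the Ctrl contrast, and 6 genes remained called higher in Ctrl colon, against 4.67% of all genes, while 22 of the 34 were called higher in Ctrl bladder, against 84.3% of all genes. The 6 were *Cldn3*, *Cldn7*, *Cldn9*, *Cldn14*, *Ocln* and *Pllp*, and the other 12 of the 18 did not keep their call. Since this scaling moves every gene towards the bladder, the 13 genes already called higher there were bound to stay so.

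*Cldn3* and *Cldn4* are neighbours on chromosome 5, 39.3 kb apart on opposite strands (GRCm38, 134986214 to 134987472 and 134945119 to 134946934), and went in opposite directions between the tissues. *Cldn3* was at 305, 150.0 and 254 TPM among Ctrl colon libraries (mice 788, 786 and 787), against 16.8, 5.25 and 3.06 TPM among those of Ctrl bladder (mice 784, 785 and 788). The tissues did not overlap, and the highest bladder library was the 1 of the 3 with prostate transcripts. The log2 difference was 5.36 (SE 0.77, adjusted p = 2.17e-04), and without the 3 libraries high in *Sbp* it was 6.04 (adjusted p = 4.53e-06). *Cldn4* was at 73.9, 51.8 and 61.3 TPM in Ctrl colon, against 186, 208 and 166 TPM in Ctrl bladder, again without overlap, a log2 difference of -1.33 (SE 0.22, adjusted p = 3.40e-04). In Y/T KO mice the *Cldn4* difference was -0.41 (SE 0.22, adjusted p = 0.133), with colon at 114, 63.1 and 98.7 TPM and bladder at 148, 142 and 140.4 TPM, which still did not overlap. *Cldn13*, the third claudin of this cluster, 29.6 kb beyond *Cldn4*, was listed at 0.

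*Cldn7* was at 747, 419 and 498 TPM in Ctrl colon, against 43.9, 41.5 and 42.7 TPM in Ctrl bladder, a log2 difference of 3.91 (SE 0.19, adjusted p = 2.11e-08). All 6 colon libraries lay far above all 6 bladder libraries. *Cldn14*, known for its part in the inner ear and kidney, was at 3.77, 2.49 and 2.60 TPM in Ctrl colon and listed at 0 in all 6 bladder libraries. It passed the filter through its colon libraries alone, so its call between the tissues was favoured in advance. *Cldn9* was also close to the floor, at 0.64, 1.00 and 1.15 TPM in Ctrl colon, and did not exceed 0.13 TPM in bladder. Of the 15 tested claudins, 7 were higher in Ctrl colon, the remaining 3 being *Cldn8*, *Cldn12* and *Cldn23*, with log2 differences of 1.29 to 1.89.

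Of the 6 claudins that were higher in Ctrl bladder, *Cldn10* had the largest difference. This gene, which encodes ion-selective pore claudins, was at 34.0, 19.02 and 16.3 TPM in Ctrl bladder, against 2.09, 2.45 and 1.85 TPM in Ctrl colon, a log2 difference of -3.06 (SE 0.42, adjusted p = 9.66e-05) that was -2.74 without the 3 libraries high in *Sbp* (adjusted p = 8.82e-04). Each bladder library was above each colon library. *Cldn1*, a sealing claudin of skin and other stratified epithelia, was at 14.1, 10.6 and 17.9 TPM in Ctrl bladder against 1.81, 3.09 and 1.25 TPM in Ctrl colon (log2 difference -2.54, SE 0.26, adjusted p = 9.37e-06). *Cldn5*, the main claudin of endothelium, was at 40.2, 32.9 and 35.4 TPM in Ctrl bladder against 11.3, 9.91 and 8.21 TPM in Ctrl colon (log2 difference -1.62, SE 0.15, adjusted p = 4.70e-06). The 8 endothelial markers moved the same way, summing to 238 to 263 TPM in Ctrl bladder, against 80.6 to 109 TPM in Ctrl colon, with all 8 called higher in Ctrl bladder and a median log2 difference of -1.15. *Cldn11*, the claudin of myelin, was at 2.02, 0.70 and 0.91 TPM in Ctrl bladder, against 0.20, 0 and 0.20 TPM in Ctrl colon, and the call was lost without the 3 libraries high in *Sbp* (adjusted p = 0.0716). *Cldn22* was at 1.12, 0.66 and 0.62 TPM against 0.17, 0.25 and 0 TPM, and its call was likewise lost (adjusted p = 0.106) and did not hold without Ctrl colon 787 or Ctrl bladder 784 (adjusted p = 0.0675 and 0.0597).

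*Cldn2* was either high or nearly absent in the colon. It was at 175, 0.05 and 167 TPM among the Ctrl libraries of this organ (mice 788, 786 and 787), while Y/T KO libraries had 0.02, 0.15 and 151 TPM (mice 759, 783 and 780), and at no more than 0.35 TPM in any bladder library. Each genotype held libraries of both kinds, 2 high of 3 in Ctrl and 1 high of 3 in Y/T KO, so the split did not follow genotype. The log2 fold change of -3.27 in colon had a 95% interval from -14.52 to 7.97, and neither tissue contrast passed the test (adjusted p = 0.105 in Ctrl and 0.573 in Y/T KO). The Ctrl tissue difference of *Cldn2* was called when Ctrl colon 786 alone was left out (log2 difference 10.01, adjusted p = 0.00790). Such a pattern was rare: of the 3950 genes at 50 TPM or more in a Ctrl colon library, 4 were under 0.5 TPM in another library of the group, and in Y/T KO colon 10 of 3865 were. *Cldn2* was in both sets, and it was the only gene of the 45 in either, in colon or in bladder.

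*Cldn2* lies on the X chromosome (GRCm38, 139800828 to 139811386, plus strand) and encodes a pore for sodium and water. Its neighbour *Tbc1d8b* was at 16.0, 33.5 and 17.0 TPM in the Ctrl colon libraries, compared with 16.2, 14.6 and 12.4 TPM in those of Y/T KO, and *Morc4* was at 4.19 to 7.01 TPM over the 6 libraries. *Rbm41* was at 5.50 TPM in Ctrl 786 and 1.73 to 2.27 TPM in the other 5. These 3 genes were highest in Ctrl 786, one of the libraries without *Cldn2*. *Ripply1*, at 0.47 to 1.11 TPM, was lowest in Ctrl 786 and Y/T KO 783, both without *Cldn2*, while Y/T KO 759, the third such library, had its second highest value. The epithelial markers of Ctrl 786 summed to 6543 TPM, the lowest of the colon libraries, while those of Y/T KO 759 and 783 were at 8166 and 9181 TPM, within the range of the high libraries. What separates the libraries was not tested.

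**Figure D2:**
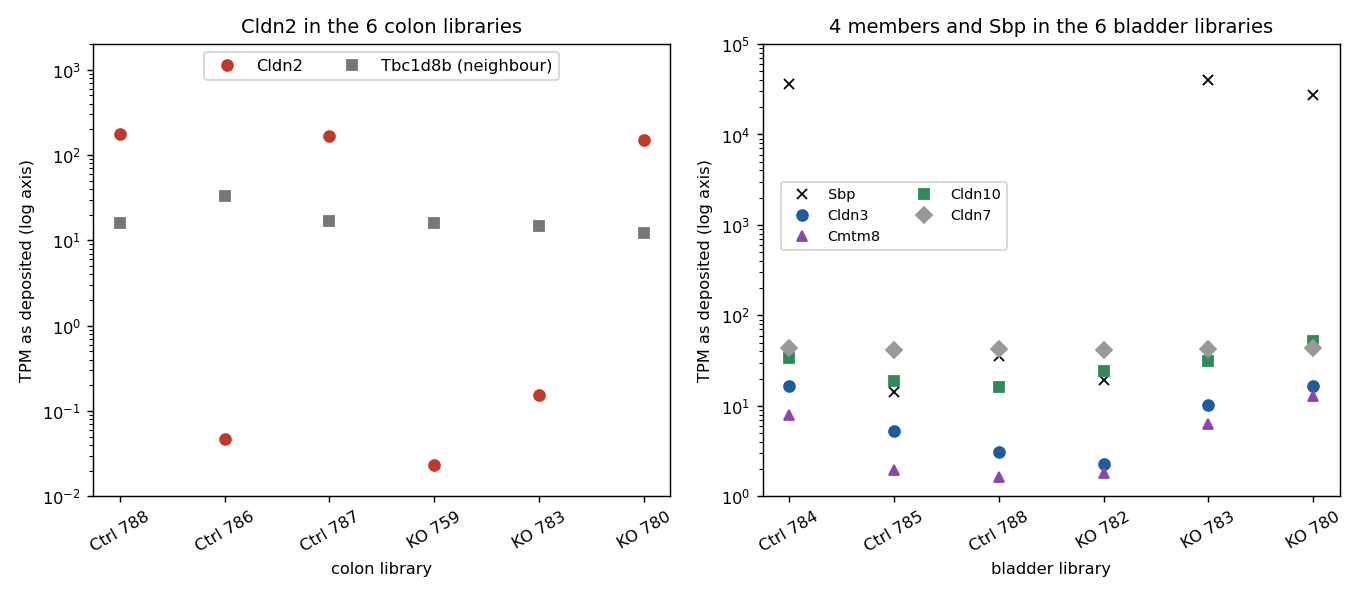
Left, TPM as deposited (log axis) of *Cldn2* and its neighbour *Tbc1d8b* in each of the 6 colon libraries. Right, TPM (log axis) of *Cldn3*, *Cmtm8*, *Cldn10* and *Cldn7* in each of the 6 bladder libraries beside the prostate gene *Sbp*: the 3 highest values of each of the first 3 genes are in the libraries with *Sbp* above 1000 TPM, and *Cldn7* stays at 41.3 to 43.9 TPM.

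Among the junction genes, occludin showed the largest tissue difference. *Ocln* was at 110, 120 and 114 TPM in Ctrl colon, against 18.4, 13.8 and 15.2 TPM in Ctrl bladder, a log2 difference of 3.12 (SE 0.21, adjusted p = 2.66e-07). The libraries of the tissues were far apart. Its relatives *Marveld2* (tricellulin, of the corners where 3 cells meet) and *Marveld3* were also higher in Ctrl colon, by 1.55 and 2.22 on the log2 scale, whereas *Marveld1* was higher in Ctrl bladder, at 170, 189 and 180 TPM against 51.8, 48.4 and 48.3 TPM (log2 difference -1.60, SE 0.14, adjusted p = 3.53e-06). *F11r*, which encodes JAM-A, was the highest junction gene in both tissues, at 469, 407 and 433 TPM in Ctrl colon, against 215, 189 and 190 TPM in Ctrl bladder (log2 difference 1.40, SE 0.20, adjusted p = 1.07e-04). The other 2 JAM genes, known from endothelium and other cell types, went the other way, *Jam2* by -0.88 and *Jam3* by -1.26. Among the scaffolds, *Tjp3* (ZO-3), which is largely epithelial, was higher in Ctrl colon, at 107, 83.5 and 106 TPM against 23.6, 21.3 and 22.2 TPM (log2 difference 2.39, SE 0.19, adjusted p = 1.34e-06). *Tjp1* (ZO-1) was at 33.6, 54.4 and 32.7 TPM in Ctrl colon, against 60.8, 62.1 and 62.6 TPM in Ctrl bladder, without overlap, and narrowly missed the threshold (log2 difference -0.40, adjusted p = 0.0516). It was called without Ctrl colon 786, its highest colon library (log2 difference -0.58, adjusted p = 0.00260).

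**Figure D3:**
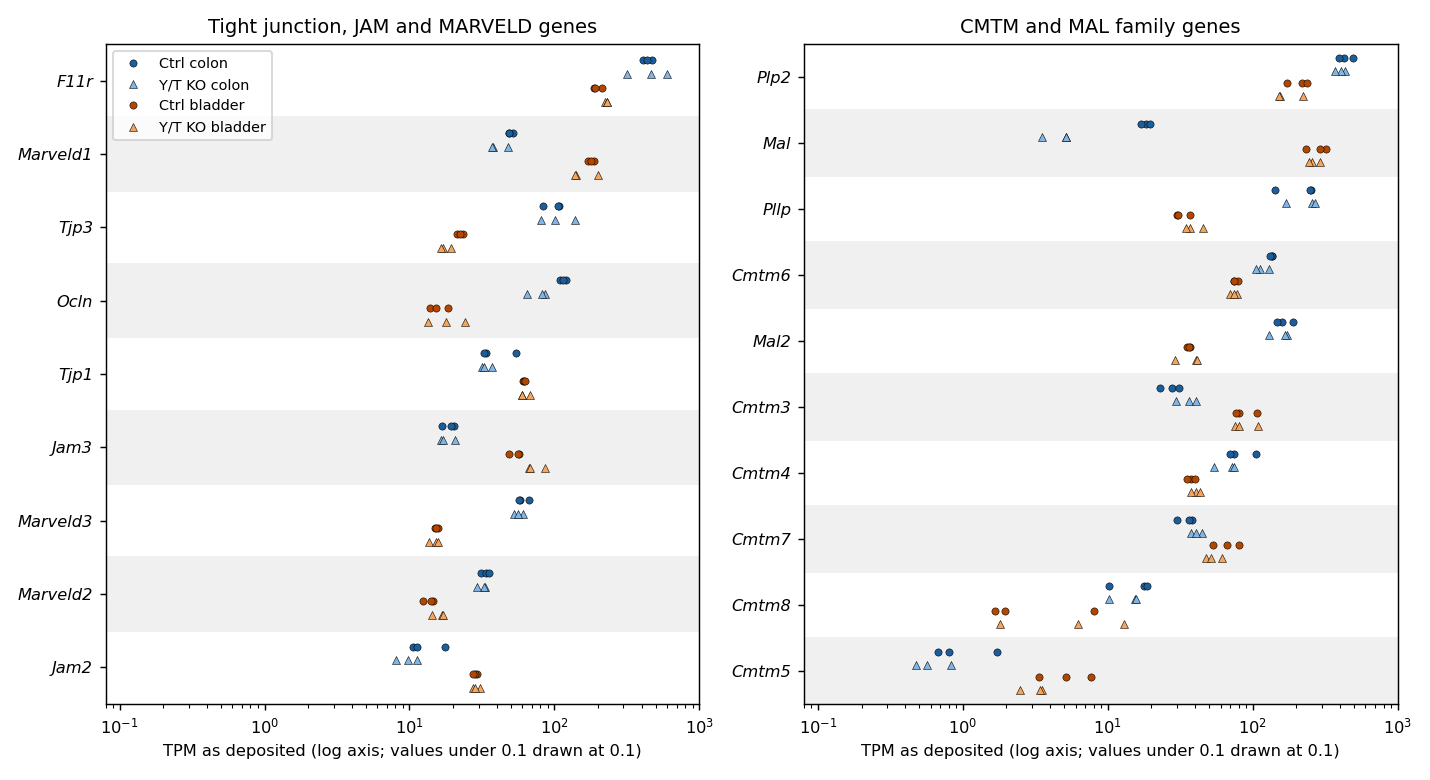
TPM as deposited (log axis) of the 9 junction genes (left) and of the 10 CMTM and MAL family genes that were detected (right), with 1 point per library and colours and symbols as for the claudins. *Mal* is at 235 to 319 TPM in bladder, 16.9 to 19.5 TPM in the Ctrl colon libraries, compared with 3.49 to 5.13 TPM in those of Y/T KO.

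The CMTM genes divided evenly, with *Cmtm4*, *Cmtm6* and *Cmtm8* higher in Ctrl colon and *Cmtm3*, *Cmtm5* and *Cmtm7* higher in Ctrl bladder. *Cmtm6*, known for stabilising PD-L1 at the cell surface, was the most abundant in colon, at 135, 136 and 131 TPM against 74.1, 79.3 and 74.3 TPM in Ctrl bladder (log2 difference 1.08, SE 0.11, adjusted p = 7.50e-06). *Cmtm4*, its closest relative, was at 74.6, 105 and 69.2 TPM in Ctrl colon against 37.5, 35.3 and 39.7 TPM in Ctrl bladder (log2 difference 1.38). *Cmtm3* had the reverse pattern, at 27.8, 31.0 and 23.0 TPM against 80.5, 77.0 and 107 TPM (log2 difference -1.42, SE 0.17, adjusted p = 2.64e-05). *Cmtm6*, *Cmtm7* and *Cmtm8* lie in a row on chromosome 9 with gaps of 7.49 kb, yet *Cmtm7* was higher in Ctrl bladder and the others in Ctrl colon. *Cmtm5* was low, at 0.80, 0.67 and 1.71 TPM in Ctrl colon, against 7.67, 5.14 and 3.37 TPM in Ctrl bladder (log2 difference -2.02, adjusted p = 0.00148). *Cmtm8* was at 17.9, 10.1 and 18.8 TPM against 8.03, 1.95 and 1.66 TPM, a log2 difference of 2.55 whose adjusted p of 0.0133 rose to 0.0525 and 0.0545 when Ctrl bladder 785 or 788 was left out and fell to 1.16e-04 without the 3 libraries high in *Sbp*.

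Of the MAL family, *Plp2* was the most abundant in colon and second to *Mal* in bladder, at 424, 395 and 491 TPM in Ctrl colon, against 173, 221 and 238 TPM in Ctrl bladder (log2 difference 1.32, SE 0.17, adjusted p = 5.34e-05). *Pllp* (plasmolipin), at 251, 142 and 247 TPM against 30.1, 37.1 and 30.6 TPM, and *Mal2*, which carries transcytosis in epithelia, were also higher in Ctrl colon, by 2.92 and 2.43 on the log2 scale. *Mal* alone of the 4 went the other way. It was at 18.2, 16.9 and 19.5 TPM in Ctrl colon, against 235, 319 and 292 TPM in Ctrl bladder, a log2 difference of -3.68 (SE 0.18, adjusted p = 1.81e-08), the largest of the 13 genes called higher in Ctrl bladder.

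**Figure D4:**
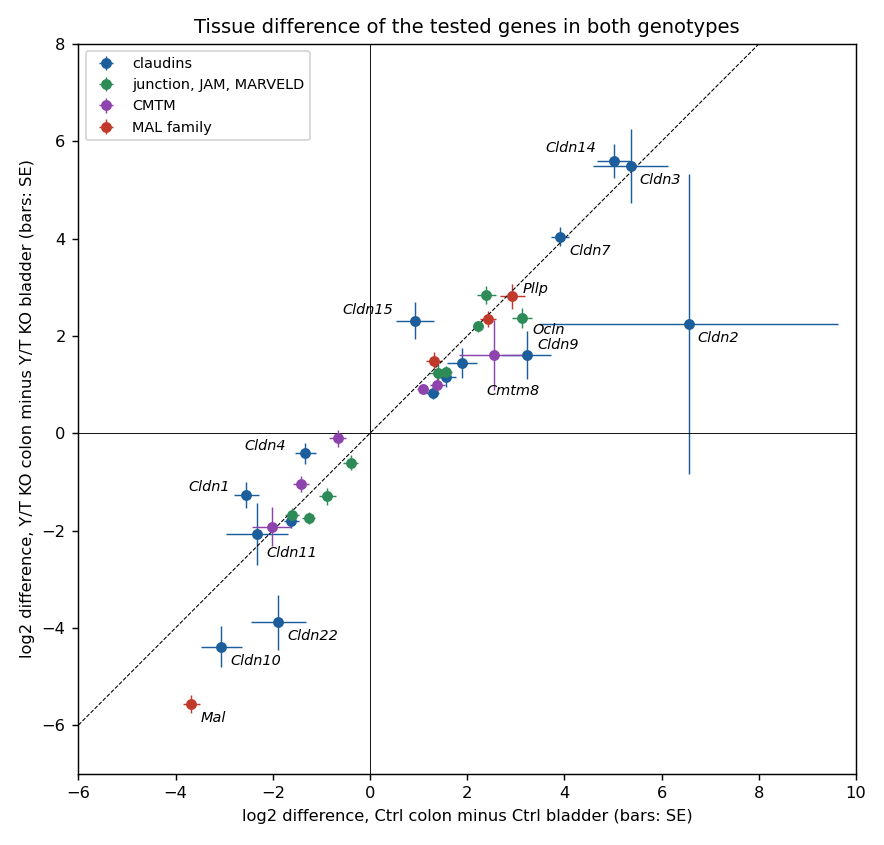
Log2 difference between colon and bladder of the 34 tested genes in Ctrl mice (horizontal axis) and in Y/T KO mice (vertical axis), with SE bars and a dashed line of equality. Genes called in both genotypes kept their direction, *Mal* lies below the line at -3.68 in Ctrl and -5.56 in Y/T KO, and *Cldn2* has the widest bars.

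In the comparison of Y/T KO with Ctrl colon, which asks what the deletion in smooth muscle does, 1 of the 45 genes passed the test. *Mal* fell from 18.2, 16.9 and 19.5 TPM in the Ctrl libraries to 5.12, 5.13 and 3.49 TPM with the deletion. Every Y/T KO library was below every Ctrl library by a wide margin. The log2 fold change was -1.95 (SE 0.22, 95% interval -2.45 to -1.45, adjusted p = 0.0329, limma). In the colon 0.137% of all 17500 tested genes were called, and 1 of the 32 tested genes of this set was. In the bladder *Mal* was at 235, 319 and 292 TPM in the Ctrl libraries, compared with 255, 293 and 244 TPM in those of Y/T KO, which overlapped (log2 fold change -0.09, adjusted p = 0.807). The fold changes of the tissues differed by -1.89 (SE 0.25, adjusted p = 0.0229), the only call among the 34 genes for such an interaction, against 0.0607% of all tested genes.

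The size of the change in colonic *Mal* varied little with the processing, and its call varied more. Its log2 fold change stayed between -2.06 and -1.76, but the adjusted p rose to 0.0717 when low genes were kept in the test and to between 0.0911 and 0.141 when Ctrl 788, 786 or 787 or Y/T KO 783 or 780 was left out. The interaction had an adjusted p of 0.0625 to 0.0767 without Ctrl colon 788 or 787, Ctrl bladder 788 or Y/T KO bladder 783, and 0.249 without the 3 libraries high in *Sbp*, where the difference was -1.68. The exact permutation test of 3 against 3 libraries cannot give a two-sided p under 0.10. Smooth muscle markers were also lower in Y/T KO colon, with no overlap of their sums and 4 of 8 lower at an unadjusted p under 0.05 but none called. Over all tested genes of the colon, the shares at that threshold were 4.59% for lower and 5.14% for higher with the deletion. T cell markers, 6 genes, summed to 14.3 to 16.9 TPM in the Ctrl colon libraries, compared with 18.5 to 23.6 TPM in those of Y/T KO, with 4 of 6 higher at that threshold. The 6 macrophage markers summed to 401 to 533 and 526 to 785 TPM, with 3 of 6 higher (median log2 fold change 0.40). Of 8 pancreatic enzyme genes tested in colon, 7 were lower in Y/T KO at that threshold (median of the 8 log2 fold changes -5.14, which depends on the 0.1 TPM added to each value), and 7 of the list of 12 were listed at 0 in all Y/T KO colon libraries against 1 in Ctrl, while the sums of the list of 12 overlapped, at 524 to 887 and 618 to 773 TPM. The 8 glial and myelin markers, cells in which *Mal* is also known, summed to 82.6 to 89.2 TPM in the Ctrl colon libraries, compared with 83.3 to 98.0 TPM in those of Y/T KO. Of the 7 tested, 2 were higher and 0 lower in Y/T KO at that threshold (median log2 fold change 0.20), and none was called. The part of these lists in the *Mal* result was not tested.

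The stretches of 250 bases before the annotated starts of *Mal*, *Cldn1*, *Cldn2*, *Cldn3* and *Cldn4* are shown because these genes carry the results on genotype, on the split of the colon libraries and on the opposite neighbours. They are RefSeq promoter windows of GRCm38.p6, which were found for 36 of the 45 genes, each read 5′ to 3′ on the strand of its gene. The positions are chr2:127656696-127656945 (minus) for *Mal*, chr16:26371840-26372089 (minus) for *Cldn1*, chrX:139800558-139800807 (plus) for *Cldn2*, chr5:134985964-134986213 (plus) for *Cldn3* and chr5:134946935-134947184 (minus) for *Cldn4*. Capitals mark matches, on either strand, to GGAATG (the core bound by the TEAD partners of YAP and TAZ), AACNGGTT (grainyhead-like factors), TTTATG (a CDX core) or GGGCGG (the GC box).
Mal: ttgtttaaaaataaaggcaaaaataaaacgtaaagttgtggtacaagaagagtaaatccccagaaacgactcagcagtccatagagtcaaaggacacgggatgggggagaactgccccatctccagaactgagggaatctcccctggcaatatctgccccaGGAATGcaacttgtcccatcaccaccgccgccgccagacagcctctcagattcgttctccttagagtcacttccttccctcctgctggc
Cldn1: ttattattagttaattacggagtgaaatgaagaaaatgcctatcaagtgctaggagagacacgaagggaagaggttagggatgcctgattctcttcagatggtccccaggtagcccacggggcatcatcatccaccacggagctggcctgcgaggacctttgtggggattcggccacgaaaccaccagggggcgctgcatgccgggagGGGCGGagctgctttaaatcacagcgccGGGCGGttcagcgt
Cldn2: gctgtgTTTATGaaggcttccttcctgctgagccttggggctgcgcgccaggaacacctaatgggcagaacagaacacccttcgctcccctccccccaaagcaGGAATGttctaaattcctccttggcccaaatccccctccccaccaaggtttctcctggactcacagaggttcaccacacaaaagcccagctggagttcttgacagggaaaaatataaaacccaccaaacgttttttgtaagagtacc
Cldn3: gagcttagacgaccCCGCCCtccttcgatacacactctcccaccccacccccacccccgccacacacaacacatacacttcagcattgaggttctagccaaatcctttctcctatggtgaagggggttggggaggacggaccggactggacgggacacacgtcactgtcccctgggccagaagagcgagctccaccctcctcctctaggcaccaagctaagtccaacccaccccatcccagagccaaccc
Cldn4: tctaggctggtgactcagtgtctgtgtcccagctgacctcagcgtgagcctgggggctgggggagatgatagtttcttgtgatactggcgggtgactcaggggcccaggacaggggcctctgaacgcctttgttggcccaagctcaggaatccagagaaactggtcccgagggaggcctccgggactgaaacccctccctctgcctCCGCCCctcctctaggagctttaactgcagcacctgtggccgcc
The windows of *Mal* and *Cldn2* each held 1 GGAATG, 89 and 147 bases before the start, and that of *Cldn2* also held 1 TTTATG. The remaining 3 windows held GGGCGG, which occurred 2 times in that of *Cldn1*. Of all 32851 windows, 12.6% held GGAATG, 1.79% AACNGGTT, 10.8% TTTATG and 32.7% GGGCGG. Of the 48 windows of these genes, 6 (12.5%), 1 (2.08%), 2 (4.17%) and 25 (52.1%) did. The motifs do not overlap in the windows shown, and a match is a description of the sequence.

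Besides *Mal*, 5 genes did not overlap between genotypes in the colon, judged on TPM rescaled between libraries, and none of these was called. In all, 2 of the 32 tested genes had every Y/T KO library above every Ctrl library, where 8.22% of all tested genes did, and 4 had every Y/T KO library below, where 7.87% did. In TPM as deposited, 1 gene (*Cldn1*) was above and 6 were below (*Cldn8*, *Cldn9*, *Cmtm6*, *Mal*, *Marveld1* and *Ocln*), against 7.52% and 8.28% of all genes. *Cldn1* was at 1.81, 3.09 and 1.25 TPM in the Ctrl colon libraries, compared with 4.91, 4.99 and 5.79 TPM in those of Y/T KO. All Y/T KO libraries were higher, though at low levels. The log2 fold change was 1.43 (SE 0.30, adjusted p = 0.236), and with all 12 libraries in a single fit and the mouse as a replicate block the gene was called (log2 fold change 1.42, adjusted p = 0.04999). *Ocln* was at 110, 120 and 114 TPM in the Ctrl libraries, compared with 86.4, 81.7 and 64.5 TPM in those of Y/T KO, which gave a log2 fold change of -0.54 (95% interval -0.88 to -0.20, adjusted p = 0.364). Its Y/T KO libraries were all lower. *Cldn8*, at 169, 180 and 142 TPM against 139.9, 113 and 121 TPM, had a log2 fold change of -0.36 (adjusted p = 0.492). *Cldn9* and *Cmtm3* had log2 fold changes of -1.15 and 0.41 with adjusted p of 0.493 and 0.505, and *Cldn9* was at 1.15 TPM or less in every library.

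The tested genes of this set lay on both sides of 0 by genotype in colon, many with wide intervals. *Cldn4* had a log2 fold change of 0.57 (95% interval -0.04 to 1.17) and *Cldn15* of 0.48 (-0.02 to 0.98). *Cldn12* was at -0.52 (-1.21 to 0.16) and *Cldn10* at -0.67 (-1.64 to 0.30), and none of these was called. With 3 libraries per group, such intervals do not show an absence of change. The median log2 fold change of the 32 genes was -0.06, against 0.01 over all genes, and 12 of the 32 were above 0. *Tjp1* had a fold change of -0.17 on the log2 scale (adjusted p = 0.773) and *Tjp3* of 0.12 (adjusted p = 0.878). With the deletion *Cldn3* stood at 229, 340 and 273 TPM (log2 fold change 0.33, adjusted p = 0.743) and *Cldn7* at 524, 606 and 611 TPM (log2 fold change 0.14, adjusted p = 0.867), both overlapping Ctrl. The summed claudins were 1318 ± 328 TPM in the Ctrl colon libraries, compared with 1315 ± 85.7 TPM in those of Y/T KO (SD, n = 3, exact permutation test, two-sided p = 1).

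**Figure D5:**
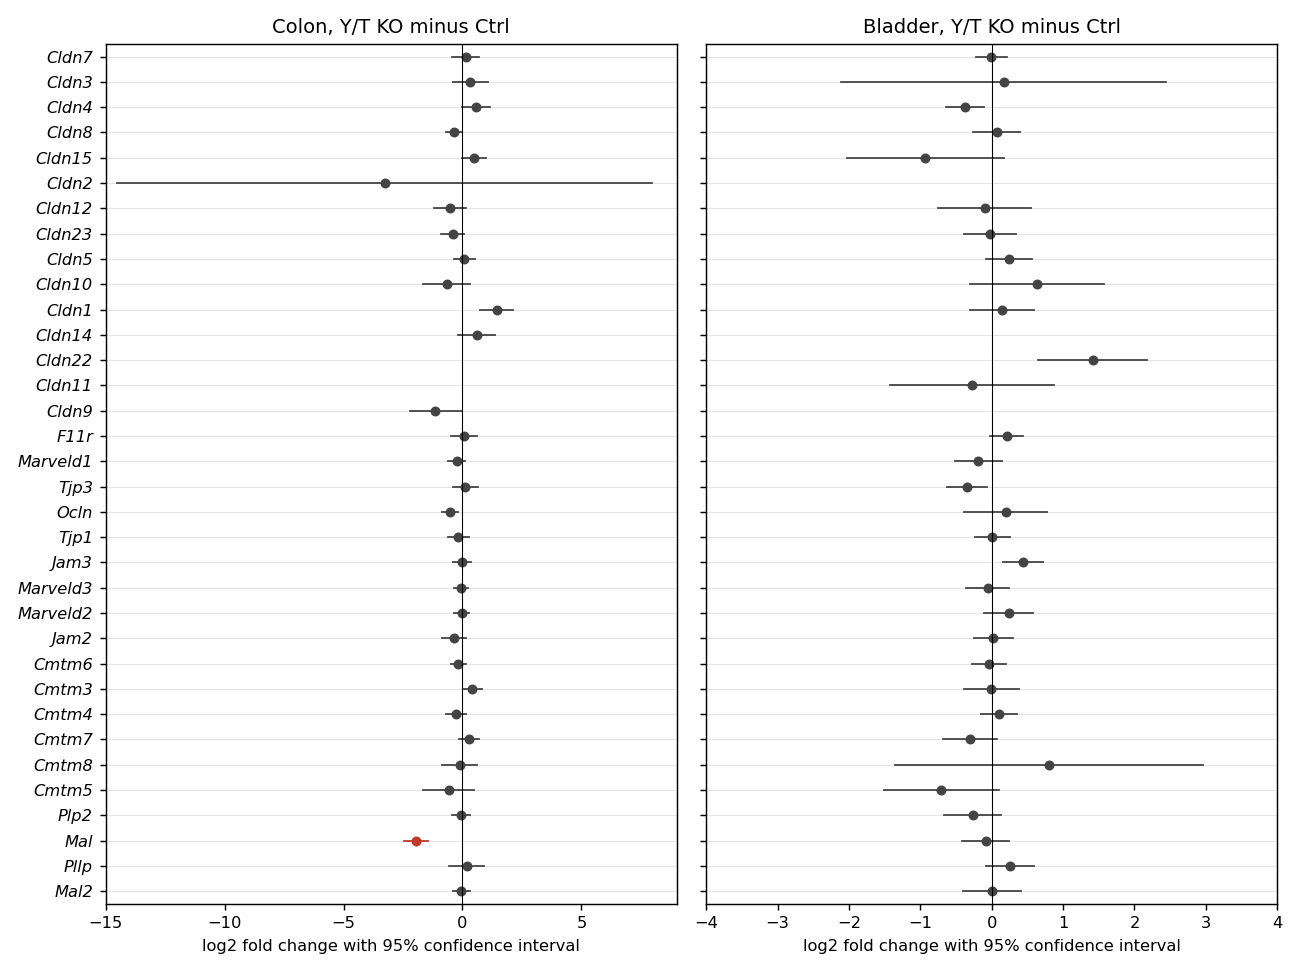
Log2 fold change of Y/T KO against Ctrl with its 95% confidence interval (bars) for each tested gene, 32 in colon (left) and 31 in bladder (right, with a narrower axis). *Mal* in colon, in red, is the only called gene, and the interval of *Cldn2* in colon runs from -14.52 to 7.97.

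In the bladder none of the 31 tested genes was called by genotype, where 0.302% of all 18237 genes were (limma), and 2 genes were higher and 2 lower at an unadjusted p under 0.05, against 6.64% and 8.20% of all genes. The genes without overlap in rescaled TPM were 2 with Y/T KO higher, where 10.6% of all tested genes were, and 2 with Y/T KO lower, where 11.4% were. In TPM as deposited *F11r* also had Y/T KO higher. Without the 3 libraries high in *Sbp* no gene was called, and the log2 fold changes of the 4 genes below were 1.74 (*Cldn22*), 0.69 (*Jam3*), -0.35 (*Cldn4*) and -0.38 (*Tjp3*). *Cldn22* was at 1.12, 0.66 and 0.62 TPM in the Ctrl bladder libraries, compared with 2.45, 2.16 and 2.10 TPM in those of Y/T KO (log2 fold change 1.41, SE 0.32, adjusted p = 0.151). The Y/T KO libraries were close to each other and all above Ctrl. This small gene lies inside *Wwc2* on the opposite strand (chromosome 8, 47824482 to 47825476, plus strand), and *Wwc2*, which encodes a regulator of the Hippo pathway, was at 12.5, 15.5 and 11.1 TPM against 9.33, 13.2 and 11.2 TPM. The library kit keeps strand, but the strand setting of the quantification is not given in the sources used here. *Jam3* was at 57.3, 48.6 and 56.2 TPM in the Ctrl libraries, compared with 85.8, 66.9 and 67.8 TPM in those of Y/T KO (log2 fold change 0.44, SE 0.12, adjusted p = 0.189), higher in each Y/T KO library. *Cldn4*, the leading bladder claudin, was at 186, 208 and 166 TPM in the Ctrl libraries, compared with 148, 142 and 140.4 TPM in those of Y/T KO, which gave a log2 fold change of -0.37 (95% interval -0.64 to -0.10, adjusted p = 0.222).

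In the bladder, *Tjp3* was at 23.6, 21.3 and 22.2 TPM in the Ctrl libraries, compared with 17.0, 16.4 and 19.5 TPM in those of Y/T KO (log2 fold change -0.34, adjusted p = 0.255), lower in each Y/T KO library. Urothelial markers were lower at an unadjusted p under 0.05 in 4 of 11 genes with none called (median log2 fold change -0.24), and smooth muscle markers in 6 of 8 with none called (8.20% of all genes were lower). Urothelial sums were 6398 and 6033 TPM in Y/T KO 783 and 780, both high in *Sbp*. Y/T KO 782 was at 7722 TPM, above Ctrl 784 at 7452 TPM. Smooth muscle sums were 20267, 16562 and 30437 TPM in Y/T KO 783, 780 and 782, and lowest among Ctrl in 784, at 34907 TPM. The part of these markers in the bladder values was not tested. The summed claudins were 473 ± 31.9 TPM in the Ctrl bladder libraries, compared with 439 ± 20.3 TPM in those of Y/T KO (SD, n = 3, exact permutation test, two-sided p = 0.2). Of the 34 genes in the joint fit, 11 had an unadjusted interaction p under 0.05, 4 positive and 7 negative. Over all genes 11.9% did, 6.43% positive and 5.45% negative. *Cldn1* (1.27, adjusted p = 0.256) and *Cldn4* (0.92, adjusted p = 0.297) followed *Mal* in adjusted p, and neither was called. Without the 3 libraries high in *Sbp*, *Cldn1* and *Cldn4* were at 1.24 and 0.90. *Cldn15* moved from 1.38 to 0.60 and *Ocln* from -0.75 to -0.42, while *Jam3* moved from -0.49 to -0.73. The source of these 11 values was not tested.

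A handful of genes varied more between bladder libraries of the same group than the rest. The highest library was more than 2-fold above the lowest for 5 of 30 genes in Ctrl bladder and 4 of 30 in Y/T KO bladder, where the medians were 1.23-fold and 1.26-fold. *Cldn3* was at 16.8, 5.25 and 3.06 TPM in the Ctrl libraries, compared with 2.25, 10.2 and 16.7 TPM in those of Y/T KO, and *Cmtm8* at 8.03, 1.95 and 1.66 TPM and 1.79, 6.23 and 12.9 TPM. For both genes the 3 libraries with *Sbp* above 1000 TPM were the 3 highest. *Cldn10*, at 34.0, 19.02 and 16.3 TPM and 24.4, 31.1 and 52.6 TPM, also had these libraries as its 3 highest. *Cldn15* had its 3 lowest values in them, at 36.1, 55.1 and 37.3 TPM in the Ctrl libraries, compared with 42.0, 10.9 and 23.3 TPM in those of Y/T KO. The 7 prostate genes summed to 45426 to 72934 TPM in these 3 libraries and 18.6 to 45.4 TPM in the other 3, and all 7 were detected in both bladder groups. The list is not particular to the prostate, as it summed to 3133 to 4439 TPM in the colon libraries. There 3 of its genes were listed at 0 in each genotype. The 8 seminal vesicle genes summed to at most 2.18 TPM in any library. With the 3 libraries left out, the log2 fold change of Y/T KO bladder moved from 0.17 to -0.83 for *Cldn3* and from 0.80 to -0.03 for *Cmtm8*, with 1 Y/T KO library assumed to vary like the other groups and no gene called. As 2 of the 3 libraries are Y/T KO, their content and genotype cannot be fully told apart here.

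The other genes of the junction had no calls by genotype. Of 26 genes for junction scaffolds and polarity, 2 were higher in Y/T KO colon and 2 lower in Y/T KO bladder at an unadjusted p under 0.05. Of all genes, 5.14% and 8.20% were. None of the 26 was called, and the medians were -0.09 in both tissues on the log2 scale. Of 18 gene identifiers for other junction membrane proteins, 6 of 17 tested were lower in Y/T KO bladder at an unadjusted p under 0.05 (8.20% of all genes were), none was called in either tissue, and the medians were -0.06 in colon and -0.18 in bladder. The 9 claudin-like PMP22 family genes and the 11 other MARVEL genes had no calls by genotype, with 7 and 6 tested in colon and 7 and 8 in bladder. Between the Ctrl tissues, 25.1% of all tested genes were called higher in colon and 25.3% higher in bladder. The scaffolds were split, with 9 called higher in colon and 7 higher in bladder of 26 and a median log2 difference of 0.05. The other junction membrane proteins had 9 and 6 of 18 and a median of 0.46, while PMP22 family genes had 1 and 4 of 7 and a median of -0.61, and the other MARVEL genes had 1 and 1 of 8 and a median of 0.02.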

How the data were processed

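Poly(A) RNA of 12 libraries was sequenced (TruSeq Stranded mRNA). The authors aligned reads with HISAT2 to GRCm38 and quantified genes with StringTie, per the labels and the study's methods, and deposited 1 table per library with TPM, FPKM and coverage for each gene. The deposited coverage signal and FPKM values gave only the aligned gigabases per library (the ratio of coverage to FPKM), and the deposited FPKM values also served as an alternative. Read counts were not analysed here, so the count test of the study (DESeq2) was replaced by a test on log2 values.

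TPM was summed by gene identifier and divided by median-of-ratios factors (0.966 to 1.11 within a tissue, 0.878 to 1.14 over all 12). Log2(TPM + 0.1) was fitted with limma 3.58.1 (lmFit, eBayes with trend and robust, R 4.3.3), for genes at 0.5 TPM or more in at least 3 libraries. Genotype was tested within the 6 libraries of a tissue. Tissue and interaction contrasts came from 1 fit of all 12 libraries with 4 group means. Fold changes are on the log2(TPM + 0.1) scale, which understates changes of low genes. P-values were adjusted by Benjamini-Hochberg over all tested genes and called under 0.05. Each group held libraries of separate mice, and per-library values in the text are TPM as deposited, while counts of genes without overlap use the rescaled TPM unless stated. The fits were tested on simulated data.

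The mouse numbers pair 3 colon and 3 bladder libraries of the same animals. Deviations from group means of same-animal pairs had a mean correlation of 0.034 (3 pairs), against -0.00686 for other pairs (15), and the mouse was a replicate block in an alternative (consensus correlation 0.0516).

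The genes and marker lists were chosen with earlier results of these data known. The lists of prostate and striated muscle genes and the fits without 3 bladder libraries or with the block in genotype contrasts were added after seeing the values. Named genes were those called by genotype or interaction, the 5 largest changes without overlap per tissue, the 5 largest Ctrl tissue differences in each direction, the 2 most abundant of each family per tissue, and *Ocln*, *Tjp1*, *Tjp3*, *F11r*, *Cldn5* and *Cldn11*. Other genes that the text names singly, *Cldn2*, *Cldn15*, *Cmtm7* and *Cmtm8* among them, were chosen after their values were seen. Of the 46 genes matched by symbol, 1 is not reported here, and counts of the described genes leave it out.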

Additional observations from a re-analysis of the deposited data

Results flagged for a closer look

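*Mal* differed between the tissues in its response to genotype: the log2 fold change in colon minus that in bladder was -1.89 (limma interaction, adjusted p = 0.0229), with 18.2, 16.9 and 19.5 TPM against 5.12, 5.13 and 3.49 TPM in colon and overlapping values in bladder.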

How the results depend on the processing

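Of the genotype and interaction values of 9 named genes, 156 of 168 alternative values kept direction and call, 11 lost the call, 1 gained it and none reversed. All 11 losses were of *Mal*, in colon or in the interaction, as the other values had no call to lose. With a library left out, *Mal* lost its colon call in 5 of 6 fits and its interaction call in 4 of 12. The colon count of 1 called gene (*Mal*) went to 0 without the filter on low values, where more genes were tested, to 2 (*Mal* and *Cldn1*) with the mouse as a replicate block in 1 fit of all 12 libraries, and ranged from 0 to 1 when a library was left out. The bladder count stayed at 0. The interaction count of 1 ranged from 0 to 1 when a library was left out and was 0 without the 3 bladder libraries high in *Sbp*, where the fit had 9 libraries. Scaled to the epithelial markers, the counts higher in colon were 6 (Ctrl) and 3 (Y/T KO) and those higher in bladder were 22 and 22 (of all genes, 4.67% and 4.19% were called higher in colon and 84.3% and 84.9% higher in bladder), as the scaling moved the median of all genes to -2.28 and -2.39. Under that scaling 9 genes called higher in Ctrl colon reversed, namely *Marveld3* (-0.16), *Marveld2* (-0.82), *Plp2* (-1.07), *Cmtm6* (-1.30), *F11r* (-0.99), *Cldn12* (-0.49), *Cldn8* (-1.10), *Cldn23* (-0.81) and *Cmtm4* (-1.003), and none reversed under another setting (659 of 677 alternative values of the 31 called genes kept direction and call, and 9 lost the call). TPM as deposited moved that median to -0.24 and -0.26. Apart from *Cldn1*, the mouse as a replicate block changed no call by genotype or interaction, and it added *Tjp1* to the genes higher in Ctrl bladder, which then numbered 14. Values under 1 TPM, as for *Cldn9*, *Cldn11* and *Cldn22*, rest on few reads, and depth per gene is unknown without counts.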
